A study of Mus musculus with 2 samples.

Results

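The genes described here carry out the steps of MHC class I antigen processing, from the cutting of proteins into peptides to the assembly of the class I complex. The list of 10 genes, Tap1, Tap2, Tapbp, B2m, Psmb8, Psmb9, Psmb10, Psme1, Psme2 and Erap1, was matched to the probe sets of Affymetrix mouse arrays whose annotation gives exactly 1 of these symbols. It found 9 of the 10 genes, in 16 of the 45101 probe sets, out of 18193 genes named on the arrays. Psme2 has no value here, because its probe set is annotated to several genes. The list was drawn up with the WT and Snail1 KO values of these same arrays known, so the differences below are descriptions and carry no test.

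The series profiled cultured endothelial cells, which form the inner lining of vessels, isolated from C57/BL6 mouse embryos at stage E10.5. Cells of both groups carried floxed Snail1 alleles (Snail1f/f), which the Cre recombinase can cut out in part, and both groups received an adenovirus and were left for several days before RNA was collected. The WT group received adeno-βGal, which encodes β-galactosidase, and the Snail1 KO group received adeno-Cre. Each group holds 1 array, so no value has a replicate or an error between cultures, and differences are given by size only. Cells with an intact Snail1 locus were not given Cre on any array, so loss of Snail1, Cre itself and the virus preparation cannot be told apart for any gene below. Whether the cells of the 2 arrays came from 1 isolation or from pooled embryos is not given in the sources used here.

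Cells display fragments of their own proteins on MHC class I molecules, where cytotoxic T cells inspect them. The proteasome cuts proteins into peptides, TAP carries the peptides into the endoplasmic reticulum, ERAP1 trims them, and tapasin holds an empty class I molecule at TAP until a peptide binds. Endothelial cells express this machinery at rest, and interferons, above all interferon gamma, are known to raise it.

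Values are log2 expression values per probe set (RMA), and a difference is Snail1 KO minus WT, so that 1 log2 unit is 2-fold. A gene with several probe sets is represented by the brightest, and a gene or probe set counts as analysed when its mean over both arrays lies above a log2 level of 3.97, the 40th percentile over the table without its control probe sets. That filter left 12874 genes. Over these genes the median difference was -0.01 and the robust SD of the differences (scaled from the median absolute deviation) was 0.32, which includes probe error and does not replace replicate cultures. Snai1 itself, measured by 1 probe set, had a log2 value of 5.33 on the WT array and 3.59 on the Snail1 KO array, 3.35-fold lower; which exons are floxed is not given in the sources used here, so the place of its probes relative to the deletion is not known. Of 8 endothelial markers, all passed the filter with WT values of 9.18 or more, 5 were higher on the Snail1 KO array and 3 lower, from Tek (0.62), Kdr (0.49), Tie1 (0.40), Cdh5 (0.12) and Pecam1 (0.03) to Erg (-0.25), Esam (-0.33) and Emcn (-0.40).

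All 9 measured antigen processing genes had a lower value on the Snail1 KO array in their brightest probe set, and all 9 passed the filter. Their median difference was -0.56, a 1.47-fold lower level, and the genes ranged from -1.27 for Psmb8 to -0.27 for Tap2. When all probe sets of a gene were averaged, dim ones included, the median was -0.30 and no gene was past 2-fold. Past 2-fold, 1 of the 9 genes was lower and none was higher, where 1.84% of all analysed genes were 2-fold lower and 0.971% 2-fold higher. At 1.5-fold, 4 of the 9 were lower, namely Psmb8, Psmb10, Tapbp and Psmb9, and none was higher, where 6.08% of all analysed genes were lower by that much and 5.06% higher. By direction alone, 50.9% of all analysed genes were lower. The list was chosen on this contrast, so nothing is read from these shares. The differences of Tap2, B2m and Erap1, at -0.27, -0.33 and -0.35, were about as large as the robust SD over all genes.

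**Figure D1:**
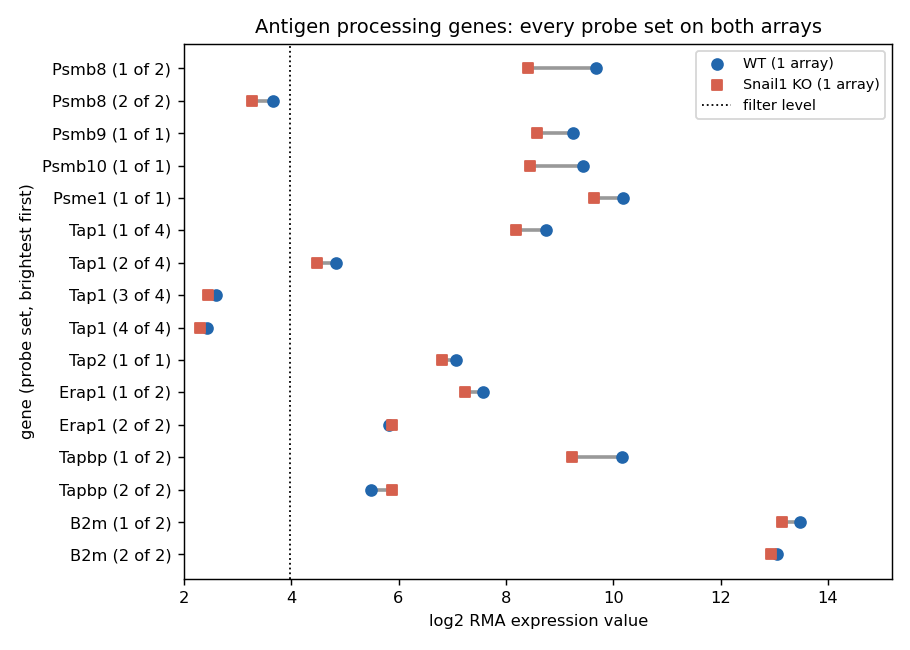
Log2 RMA value (x axis) of each of the 16 probe sets of the 9 measured genes (y axis, brightest probe set of a gene first) on the WT array (circles) and the Snail1 KO array (squares), with 1 array per group and no error bars. The dotted line is the filter level of 3.97. In 14 of the 16 probe sets the square lies to the left of the circle, and the exceptions are the dimmer probe sets of Erap1 and Tapbp.

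The probe sets of a gene did not all repeat the brightest one. Of the 16 probe sets, 13 passed the filter, and 11 of these were lower in Snail1 KO cells and 2 were higher. The 3 that did not pass belong to Psmb8 (1) and Tap1 (2). Psmb9, Psmb10, Psme1 and Tap2 were each read by 1 probe set, so they have no second measurement on these arrays.

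The immunoproteasome subunits Psmb8, Psmb9 and Psmb10 take the places of the constitutive catalytic subunits Psmb5, Psmb6 and Psmb7 in the barrel-shaped core of the proteasome, and the exchange alters which peptides are cut. Psmb8 (LMP7), on chromosome 17, had a log2 value of 9.67 on the WT array and 8.40 on the Snail1 KO array in its bright probe set. The difference was -1.27, which is 2.41-fold, and 1.17% of all analysed genes had a lower one. Its other probe set, of a kind (_x_at) whose probes can bind other transcripts, was at 3.65 and 3.27 and so did not reach the filter level. Psmb8 was the only gene of the list past 2-fold, and this rests on 1 probe set; the average of both gave -0.82.

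Psmb10 (MECL-1), on chromosome 8, was at 9.44 on the WT array and 8.45 on the Snail1 KO array, a difference of -0.99 or 1.98-fold. It thus lay just short of the 2-fold threshold. Psmb9 (LMP2), on chromosome 17, was at 9.25 and 8.59, a difference of -0.66 or 1.58-fold. On the Snail1 KO array the 3 immunosubunit probe sets were between the 83.5th and the 85.0th percentile of all probe sets, against the 89.7th to the 92.2nd on the WT array. They thus remained among the brighter probe sets on both.

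Beside the immunosubunits, the constitutive subunits they replace were lower too, by less. Psmb5 was at 11.33 on the WT array and 11.00 on the Snail1 KO array, a difference of -0.33, and that of Psmb8 went 0.94 log2 units further (1.91-fold). Psmb7 was at 11.11 and 10.61, a difference of -0.51, and that of Psmb10 went 0.48 further. Psmb6 was at 11.11 and 10.82, a difference of -0.29, and that of Psmb9 went 0.37 further. In all 3 pairs the immunosubunit had the larger difference, each subunit being represented by 1 probe set past the filter. The immunosubunits belong to the list chosen on this contrast and the constitutive subunits do not, so nothing is read from this. With the probe sets of Psmb8 averaged, its difference minus that of Psmb5 was -0.49. Levels of different probe sets depend on their probes, so the brightness of Psmb5 is not compared with that of Psmb8.

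Psme1 encodes the alpha subunit of PA28, the ring that caps the proteasome core and opens its gate, and is also raised by interferon gamma. It was at 10.17 on the WT array and 9.63 on the Snail1 KO array, a difference of -0.54 or 1.45-fold. Psme2, the beta subunit of the same ring, was not read here. Psme3, the subunit of the nuclear PA28 ring was at 8.26 and 7.80, a difference of -0.46, with another probe set at -0.33. The difference of Psme1 went 0.08 log2 units further than that of Psme3 in the brightest probe sets, and 0.23 further when probe sets were averaged. Psme1 belongs to the chosen list and Psme3 does not, so nothing is read from this either.

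The lower values of the immunosubunits and Psme1 stood beside lower values of most other proteasome genes. Of 42 other proteasome genes on the arrays, all passed the filter, 40 were lower in Snail1 KO cells and 2 were higher, and their median difference was -0.28. None was past 1.5-fold, and they spanned -0.51 to 0.15. The 11 remaining core subunits were all lower, with a median of -0.33, and Psmb3, Psma6, Psma1 and Psma3 had the largest differences at -0.50, -0.50, -0.47 and -0.46. In the cap that recognises ubiquitin-tagged proteins, 19 of 20 genes were lower, with a median of -0.23, led by Psmc4 (-0.43), Psmd7 (-0.38), Psmc2 (-0.35) and Psmc6 (-0.34). The assembly factors Pomp, Psmg1, Psmg2, Psmg3 and Psmg4 lay between -0.48 for Psmg1 and -0.26 for Pomp. The exceptions were the cap subunit Psmd5, at 0.15, and Psme4, a further activator, at 0.14, while the inhibitor Psmf1 was at -0.22 where it was brightest and at 0.07, 0.30 and 0.32 in its 3 other analysed probe sets. Over all 78 probe sets of these genes that passed the filter, 64 were lower and 14 higher, with a median of -0.26. Of the 42 genes, 26 belong to the brightest 10% of analysed genes, among which 56.8% were lower and the median difference was -0.05.

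**Figure D2:**
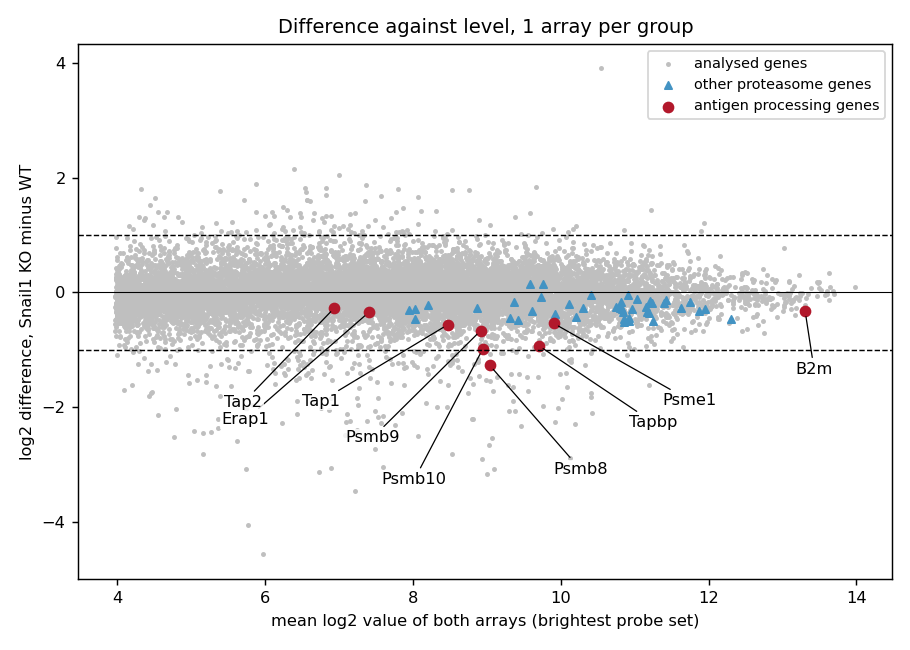
Log2 difference, Snail1 KO minus WT (y axis), against the mean log2 value of both arrays (x axis) for the 12874 analysed genes (grey), the 42 other proteasome genes (triangles) and the 9 antigen processing genes (labelled circles), with 1 array per group. Dashed lines mark 2-fold. Of the labelled genes only Psmb8 lies beyond a dashed line, at -1.27, and most triangles lie just below 0, with a median of -0.28.

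TAP1 and TAP2 form the pump that moves peptides from the cytosol into the endoplasmic reticulum. Tap1, on chromosome 17, was at 8.75 on the WT array and 8.19 on the Snail1 KO array, a difference of -0.56 or 1.47-fold. Its next probe set was at 4.83 and 4.48, a difference of -0.35, and the other 2, at most 2.60 on either array, lay under the filter level. Tap2, its partner, was at 7.07 and 6.80, a difference of -0.27 or 1.20-fold, and 21.4% of all analysed genes had a lower one. In brightest probe sets Tap2 was the least different gene of the list. With probe sets averaged, Erap1 (-0.14) and B2m (-0.22) differed less, and Tapbp was at -0.27 as well. Other transporters of the same subfamily (ABCB) differed both ways: of 7 analysed, 4 were lower and 3 higher, from -0.89 for Abcb1b and -0.76 for Abcb4, both at the plasma membrane, to 0.36 for Abcb6 and 0.42 for Abcb8, whose other probe set was at -0.02.

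Psmb9 and Tap1 share a promoter, from which they are transcribed in opposite directions, and their brightest probe sets differed by -0.66 and -0.56. Averaged over its 4 probe sets, 2 of them below the filter level, Tap1 was at -0.30. In the RefSeq annotation of GRCm38.p6 their start sites are 226 bases apart. The 225 bases between them, at chr17:34187331-34187555, are shown because 1 stretch of DNA serves both genes, on the plus strand, which is the direction of Tap1. Capitals mark matches, on either strand, to an NF-kB pattern (GGG and CC with any 5 bases between them) and to CAGGTG, an E-box of the form that Snail proteins are known to bind.

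Psmb9-Tap1: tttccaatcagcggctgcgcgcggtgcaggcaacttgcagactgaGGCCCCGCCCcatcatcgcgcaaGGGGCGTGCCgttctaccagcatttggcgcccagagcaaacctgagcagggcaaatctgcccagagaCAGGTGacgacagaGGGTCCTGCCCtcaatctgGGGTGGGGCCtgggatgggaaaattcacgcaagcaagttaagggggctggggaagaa

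The E-box begins 90 bases before the Tap1 start. It was looked for after the sequence had been seen, and 20.2% of all 32851 RefSeq promoter windows (250 bases before to 50 after each start) hold it. The NF-kB pattern is common, found in 50.8% of windows. Neither the interferon-stimulated response element (ISRE), read here as GAAA, any 2 bases and GAAA, nor the gamma-activated site (GAS), spelled TTCNNNGAA, was matched in this stretch. A match is a description of letters and not a binding site.

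Promoter windows were found for 9 of the 10 listed genes, all but Tap2. An ISRE lay in the windows of B2m, Psme1 and Erap1, against 3.99% of all genes with a window. A GAS lay in the window of Psmb8 alone, against 9.55% of all genes. NF-kB patterns lay in the windows of 5 of the 9 genes, B2m, Psmb9, Psme1, Psme2 and Tap1, against 53.5% of all genes. The matches of Psmb9 and Tap1 lie in the stretch they share, so these 2 genes are not separate cases. For Tapbp and Psmb10 none of the 4 patterns was matched. The ISRE of Psme1 is TTTCGCTTTC (reverse strand match, starting at base 10 of the transcript) and that of Erap1 is TTTCACTTTC (reverse strand match, starting 4 bases before the start). The matches of Psmb8, which had the largest difference in a single probe set, and of B2m, the brightest, are shown in the 250 bases before the start, both on the plus strand, at chr17:34197945-34198194 and chr2:122147437-122147686 of GRCm38.p6.

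Psmb8: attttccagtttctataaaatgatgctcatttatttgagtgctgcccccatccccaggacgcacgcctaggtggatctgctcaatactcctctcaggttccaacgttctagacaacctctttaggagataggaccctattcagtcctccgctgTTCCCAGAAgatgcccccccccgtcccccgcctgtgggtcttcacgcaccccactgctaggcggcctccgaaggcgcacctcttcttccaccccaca

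B2m: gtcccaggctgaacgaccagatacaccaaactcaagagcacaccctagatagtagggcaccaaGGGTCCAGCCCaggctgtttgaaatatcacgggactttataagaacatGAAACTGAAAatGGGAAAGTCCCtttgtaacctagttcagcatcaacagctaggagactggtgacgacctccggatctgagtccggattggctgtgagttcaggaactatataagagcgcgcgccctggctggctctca

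In Psmb8 the capitals are the GAS, TTCCCAGAA, which begins 97 bases before the start. In B2m they are, from left to right, a pair of overlapping NF-kB patterns, the ISRE GAAACTGAAA, which begins 139 bases before the start, and another overlapping pair of NF-kB patterns just after it. B2m holds both an ISRE and NF-kB patterns and differed by -0.33, while Psmb8 holds the GAS alone and differed by -1.27. Psmb10 and Tapbp hold none of the patterns in their windows and differed by -0.99 and -0.93. Whether the patterns bear on the size of a difference was not tested.

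ERAP1 trims peptides inside the endoplasmic reticulum to the length that class I molecules hold. Erap1, on chromosome 13, was at 7.57 on the WT array and 7.23 on the Snail1 KO array, a difference of -0.35 or 1.27-fold. A dimmer probe set was at 5.82 and 5.88, a difference of 0.06 in the other direction. The direction for Erap1 thus depends on the probe set. Of the 6 other peptidases analysed, 5 were lower and 1 higher, with Lap3 (leucine aminopeptidase) at -0.49, Tpp2 (tripeptidyl peptidase) at -0.28, Thop1 (thimet oligopeptidase) at -0.26 and Npepps (puromycin-sensitive aminopeptidase) at 0.43. These are brightest probe sets, and directions within the group turned with the probe set: the 4 other analysed probe sets of Tpp2 lay between -0.05 and 0.31, and Blmh, bleomycin hydrolase, was at -0.16 and 0.41. With probe sets averaged per gene the median of the 6 was -0.0046.

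Tapbp encodes tapasin, which bridges TAP and the empty class I molecule. It was at 10.16 on the WT array and 9.24 on the Snail1 KO array in its bright probe set, a difference of -0.93 or 1.9-fold, and 2.17% of all analysed genes had a lower one. Its other probe set was at 5.48 and 5.87, higher on the Snail1 KO array by 0.39. Both probe sets passed the filter, and the annotation gives both the same sequence record. The mean of both would give -0.27, so the size for Tapbp rests on which probe set is read.

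Other folding and peptide loading proteins of the endoplasmic reticulum differed both ways. Calr and Canx, the calcium-binding lectin chaperones, differed by 0.25 and 0.06, and Pdia3 (ERp57), the thiol oxidoreductase paired with tapasin, by 0.35. P4hb, a further oxidoreductase, was at 0.15. Hspa5 (BiP), the main chaperone of the endoplasmic reticulum, was at -0.12, and Tapbpl, the tapasin-related peptide editor, at -0.14. The median of the 6 was 0.11, with 4 higher, 2 lower and none past 1.5-fold.

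B2m encodes beta-2-microglobulin, the light chain without which class I molecules do not reach the surface. It was at 13.47 on the WT array and 13.14 on the Snail1 KO array, a difference of -0.33, and its other probe set was at 13.05 and 12.95, a difference of -0.11. Both lay above the 99.7th percentile of probe sets on both arrays.

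The heavy chains that pair with B2m were read with less certainty, since the classical genes are nearly identical and most of their probe sets can bind several of them. Of 23 heavy chain and class I-like genes listed, 12 were on the arrays under 1 symbol and 8 passed the filter, 4 lower and 4 higher. H2-K1 differed by -0.43 in its brightest probe set, from 12.81 to 12.38, and its other 3 lay between -0.29 and -0.83. H2-D1 was at 12.72 and 12.52, a difference of -0.20, with its 4 other analysed probe sets between -0.16 and -0.42. Class I-like genes with other tasks differed both ways. Mr1, which presents vitamin metabolites, was at 6.56 and 7.73, a difference of 1.17, with another probe set at 0.80, and Fcgrt, the neonatal Fc receptor, was at 0.80. H2-T3 was at 0.54 from a dim WT value of 4.63, and Hfe, a regulator of iron uptake, at -0.47. Mr1 was the 1 gene of this list past 2-fold, where 0.971% of all analysed genes were 2-fold higher.

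**Figure D3:**
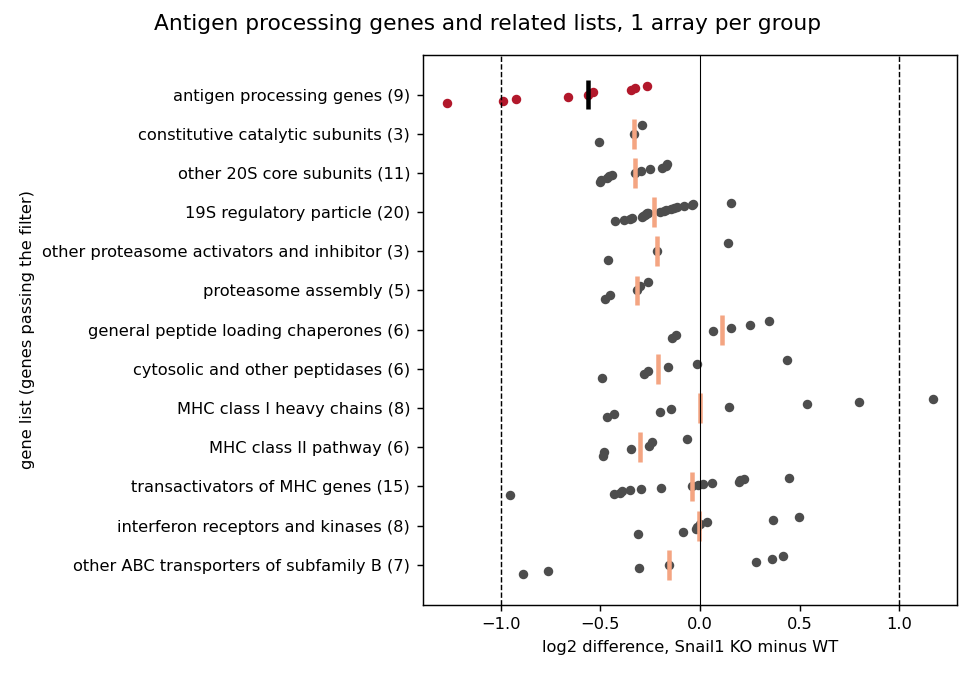
Log2 difference, Snail1 KO minus WT (x axis), of each gene that passed the filter (points, brightest probe set), by gene list (y axis, number of genes in parentheses), with 1 array per group. Thick bars are list medians and dashed lines mark 2-fold. The antigen processing genes, with a median of -0.56, were chosen on this contrast and the other lists were not, so nothing is read from their place. With probe sets averaged per gene their median was -0.30, against -0.33 for the constitutive catalytic subunits. The proteasome lists lie mostly between -0.51 and 0, and the loading chaperones lie on both sides of 0.

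Among regulators of these genes, the brightest probe sets put 1 of 15 past 1.5-fold, and it was lower. Of all analysed genes, 6.08% were lower by that much, so nothing is read from this count. Stat2, a subunit of the factor that type I interferon activates, was at 8.03 on the WT array and 7.07 on the Snail1 KO array, a difference of -0.96, with another probe set at -0.43. Its partner Irf9 differed by -0.40, Irf1, an interferon-induced activator, by -0.43, and Nlrc5, the transactivator of class I genes, by -0.39. Rfxap, a subunit of a factor that binds MHC promoters, was at -0.30 in the brighter of its probe sets, from 7.94 to 7.65, but at 1.32 in the other, from 5.45 to 6.76, so its direction depends on the probe set. Creb1, which also binds class I promoters, was at 0.45 in its brightest probe set, while its 4 other analysed ones lay between -0.10 and 0.27. Over the 15 analysed regulators the median was -0.04, with 9 lower and 6 higher.

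Interferon receptors and their kinases had a median of -0.01 over 8 genes, with 5 lower and 3 higher and none past 1.5-fold. The gamma receptor chains Ifngr1 and Ifngr2 differed by -0.31 and -0.09, the type I receptor chain Ifnar1 by 0.49 and the kinase Jak1 by 0.36, with its other probe sets at 0.07 and -0.29. The MHC class II pathway, which presents peptides from outside the cell, was dim: 6 of its 9 genes on the arrays passed the filter, none above 6.91 on the WT array. All 6 were lower, at -0.49 for Cd74 (the invariant chain), -0.48 for Ifi30, -0.35 for H2-Eb1 and -0.26 for H2-DMa among others.

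Position on the chromosome was not part of the choice of these genes, but their differences were known when the list was drawn up. Psmb9, Tap1, Psmb8 and Tap2 lie side by side on chromosome 17, between class II genes, and Tapbp lies elsewhere on the same chromosome. Around the cluster, H2-DMa differed by -0.26, H2-Ab1 by -0.06 and Brd2, a bromodomain protein, by 0.07, while H2-DMb2, H2-Ob and H2-Aa did not pass the filter. Beside Tapbp lay Daxx, a histone chaperone, at -0.79, from 9.66 to 8.87, while Zbtb22, Kifc1 and Rgl2 were at 0.06, 0.01 and 0.23, and Pfdn6 and Wdr46 at -0.39 and -0.33. The neighbours of Psmb10 that passed, Pskh1, Lcat, Slc12a4 and Dpep3, lay between -0.17 and 0.14, against -0.99 for Psmb10 itself. Psmb10 belongs to the list chosen on this contrast and its neighbours do not, so nothing is read from this.

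Around Psme1, Irf9 was at -0.40, Pck2 at -0.38 and Dcaf11 at 0.23, and the closest genes, Fitm1, Emc9 and Rnf31, were between -0.15 and -0.09. Beside Erap1, Cast, which encodes the calpain inhibitor calpastatin, was at 9.20 on the WT array and 10.10 on the Snail1 KO array, a difference of 0.90 opposite to that of Erap1, while Zfp825 was at -0.54, Ccdc127 at -0.26, Ell2 at -0.21 and E430024I08Rik at 0.19. Rec8, near Psme2, was at -0.06. B2m had 1 neighbour past the filter, Ctdspl2, at 0.14. Over the 26 neighbours of all 10 listed genes that passed, the median was -0.09, with 16 lower and 10 higher. At 1.5-fold, 1 was lower (Daxx) and 1 higher (Cast), where 6.08% of all analysed genes were lower and 5.06% higher. None of the 26 was past 2-fold.

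**Figure D4:**
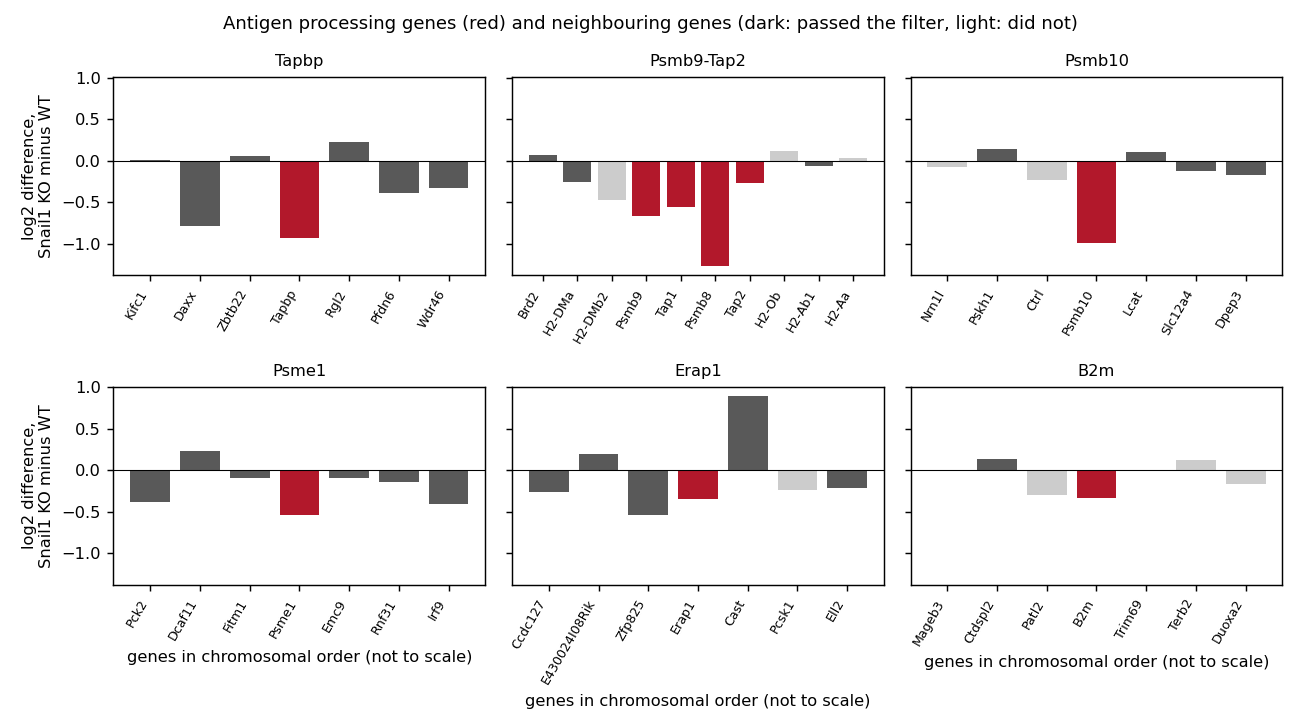
Log2 difference, Snail1 KO minus WT (y axis), of the measured antigen processing genes (red bars) and of the 3 nearest genes with a named probe set on each side, in chromosomal order and not to scale (x axis), for 6 places in the genome, with 1 array per group. Dark bars are neighbours that passed the filter and light bars are those that did not. Psmb10 stands at -0.99 among neighbours between -0.24 and 0.14, while Daxx beside Tapbp is at -0.79 and Cast beside Erap1 at 0.90. The red genes were chosen on this contrast and the neighbours were not, so nothing is read from their comparison.

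Other cell types also express these genes, leukocytes most of all, and in bulk RNA fewer cells of a type and less RNA per cell cannot be told apart. Of 12 leukocyte markers, 6 passed the filter, 4 lower and 2 higher, and the log2 of the summed level over all 12 was 9.62 on the WT array and 9.53 on the Snail1 KO array. Such a sum follows its brightest genes most: Cd14 here, Thy1 for the fibroblast and Emcn for the endothelial markers. Similar sums thus do not show that every marker was alike on both arrays. Of those that passed, Cd14 was at 8.43 and 8.60, Cd68 at 7.27 and 7.20, Laptm5 at 5.58 and 5.76, Csf1r at 4.91 and 4.66 and Cd3e at 4.69 and 4.65. Ptprc (CD45), at 2.96 and 3.29, Tyrobp, Aif1, Itgam, Adgre1 and Cd79a did not pass. The actin regulator Coro1a, best known from blood cells, was lower by 1.96 log2 units, from 6.80 to 4.84, and its part in the result was not tested. The summed level of 7 smooth muscle and pericyte markers was 11.06 and 9.42, most of it from Acta2, at 10.94 and 9.09. Of the 5 that passed, Acta2 (-1.85), Cnn1 (-0.81) and Pdgfrb (-0.40) were lower, and Des (0.01) and Cspg4 (0.10) were higher. The summed level of 5 epithelial markers was 7.13 and 6.55, and the 3 that passed were lower: Krt18 (-1.30), Krt8 (-0.16) and Epcam (-0.10). That of 6 fibroblast markers was 11.82 and 11.83, with Col1a2 (0.31), Dcn (0.17) and Col1a1 (0.12) higher and Thy1 (-0.06) lower among the 4 that passed. The part of the smooth muscle and epithelial markers in the values of the antigen processing genes was not tested. The 8 endothelial markers all passed, with summed levels of 14.35 and 14.24.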

How the data were processed

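RNA of 2 cultures, 1 per group, was hybridised to 1 Affymetrix mouse array each, and the sample titles gave the groups. The authors deposited 1 log2 value per probe set and array, and per the submitters' processing notes it was computed by affy's RMA, whose version is not given in the sources used here. RMA normalizes the arrays to 1 distribution, so a change of total mRNA cannot be seen, and it compresses differences of dim probe sets. Of 45101 probe sets, 64 are controls, 34945 have 1 gene symbol in GEO's platform annotation, 932 several and 9160 none. Those with several or none were left out. Scanner intensities were not used here, so signal over background is unknown, and the number of arrays limits the precision.

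The members and lists were chosen with earlier results of these data known. Named genes are all members, every gene of related lists of up to 6, the 4 largest differences in longer ones, Snai1, and those of the 3 nearest measured genes on each side that passed the filter. Marker lists of cell types were fixed separately, and their analysed members are all given. Psmd5, H2-K1, H2-D1, Nlrc5, Rfxap and Blmh fall outside this rule and were chosen with their values in view. Older symbols were matched through RefSeq synonyms (GRCm38.p6), which also gave gene order and, in a separate table, promoter sequences. The CAGGTG search was added after the sequences were seen. Python 3.11.15, pandas 2.3.3 and numpy 2.4.6 were used. The counting by size was tested on simulated data with known shifts, which checks the code and not the counts from these arrays. Alternatives changed the probe set summary, the filter, the centring, the fold threshold and the use of probe sets that can bind several transcripts.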

Additional observations from a re-analysis of the deposited data

Results flagged for a closer look

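A signal outside the gene comparison was far above its level in the control cells. The arrays carry 4 control probe sets for Cre. These read between 2.69 and 3.83 on the WT array and between 11.87 and 12.86 on the Snail1 KO array, with a smallest log2 difference of 8.04. The Snail1 KO cells are those given adeno-Cre, but whether the signal came from the cells was not tested. The other control probe sets were not examined.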

How the results depend on the processing

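Leaving out an array was not possible, and no paired analysis was possible because each group holds 1 array. When probe sets were averaged per gene, the median of the 9 antigen processing genes was -0.30, and with the median probe set value it was -0.40 over 8 genes, without Tap1, which no longer passed the filter. Under both, no member (0) was past 2-fold, Psmb8 was at -0.82, Tapbp at -0.27, and the difference of Psmb8 minus that of Psmb5 was -0.49. All 9 stayed lower under every alternative that gave them a value. For Psmb9, Psmb10, Psme1 and Tap2, with 1 probe set each, no alternative could change the value. Read alone, the dimmer probe sets of Tapbp (0.39) and Erap1 (0.06) were higher. With mean and median respectively, the list medians were 0.12 and 0.18 for the other proteasome activators and inhibitor, -0.0046 and -0.0051 for the peptidases, and 0.061 and 0.19 for the ABC transporters. Averaging left 77 genes 2-fold higher. A stricter filter, at the 60th percentile, gave medians of -0.15 for the class I heavy chains (7 genes), -0.48 for the class II pathway (1 gene) and 0.063 for the ABC transporters (6 genes). At 1.5-fold, 783 genes were lower and 652 higher, with 4 members and 3 related list genes lower; at 3-fold, 90 and 23, with no member (0). Centring had no effect, since the median difference over all probe sets was 0. For the result on each pair or list not named here, no alternative moved the value beyond its yardstick, the robust SD of 0.32 divided, for medians, by the square root of the number of genes. Signal over background was not used here, so no detection limit is given for dim probe sets.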
